A study of Mus musculus with 8 samples.

Results

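The genes described here are 9 immediate early genes, chosen by name: Egr1, Egr2, Egr3, Nr4a1, Nr4a2, Nr4a3, Ier2, Ier3 and Srf. They are 9 of the 18193 mouse genes on the array that could be named by a single gene symbol, and 19 probe sets read them. The cells were NIH3T3, an established mouse embryonic fibroblast line, transduced with the reporters mVenus-p27K- and mCherry-hCdt1(30/120). All cells, of both groups, had been kept without serum and then returned to 10% serum for 5 h before sorting. The G1 group was mVenus-negative and mCherry-positive, and the G0 group was mVenus-positive and mCherry-positive, so both come from stimulated cultures and neither is an unstimulated control. Total RNA of each gate was hybridised to 4 arrays, with replicates numbered 1 to 4 in the sample titles. Whether the reporter cells were a clone or a pool, and whether replicates were separate cultures, the labels do not say. The p-values therefore rest on the spread between arrays, which may be technical.

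Immediate early genes are transcribed within minutes of growth factor addition without new protein synthesis, and most fall back within hours. Serum acts on them through the ERK kinases and other signals, which activate the serum response factor SRF with its partners of the Elk and MRTF families at CArG boxes, and through CREB at cyclic AMP response elements. The Egr proteins are zinc finger transcription factors, the Nr4a proteins are orphan nuclear receptors that need no ligand, and Ier2 and Ier3 encode small regulatory proteins without a zinc finger or receptor domain. In fibroblasts this set marks the exit from quiescence, and at 5 h after serum most of the first wave is usually past.

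Upstream sequences are shown for Srf, Nr4a1, Nr4a2 and Egr2, because Nr4a1, 1 of 2 Srf probe sets and 3 of 6 Nr4a2 probe sets varied together across arrays and an Egr2 probe set had the lowest p-value of the 19. RefSeq windows (build GRCm38.p6) were at hand for 6 of the 9 genes. Each of the first 3 sequences covers the 250 bases before the transcript start, and the Egr2 sequence is a stretch of 30 bases that ends 53 bases before one of its starts. They read 5′ to 3′ along the gene. Capitals mark CArG boxes, the CREB core TGACG (or CGTCA on the other strand) and the Egr site GCGGGGGCG on either strand, and in the Egr2 stretch only the CArG box.
Srf, chr17:46556163-46556412, minus strand: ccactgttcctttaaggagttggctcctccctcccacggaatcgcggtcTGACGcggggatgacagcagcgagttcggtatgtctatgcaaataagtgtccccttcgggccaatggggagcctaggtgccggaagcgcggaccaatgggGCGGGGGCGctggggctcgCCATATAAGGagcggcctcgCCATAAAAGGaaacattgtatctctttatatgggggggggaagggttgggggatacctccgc
Nr4a1, chr15:101266596-101266845, plus strand: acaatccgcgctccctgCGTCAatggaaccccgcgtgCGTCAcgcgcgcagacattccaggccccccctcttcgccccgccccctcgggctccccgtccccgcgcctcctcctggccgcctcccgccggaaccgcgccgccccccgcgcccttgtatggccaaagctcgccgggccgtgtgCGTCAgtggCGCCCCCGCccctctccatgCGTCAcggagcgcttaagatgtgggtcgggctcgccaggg
Nr4a2, chr2:57124004-57124253, minus strand: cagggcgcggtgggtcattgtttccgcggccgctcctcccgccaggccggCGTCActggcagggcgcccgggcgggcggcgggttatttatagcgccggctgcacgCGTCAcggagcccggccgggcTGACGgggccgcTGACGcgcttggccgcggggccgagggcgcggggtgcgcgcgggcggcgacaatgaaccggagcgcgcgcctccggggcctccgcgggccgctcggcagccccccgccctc
Egr2, chr10:67537787-67537816, plus strand: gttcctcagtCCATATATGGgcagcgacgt

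The Srf window held 2 CArG boxes, at −82 to −73 and −62 to −53 from the transcript start. At least 1 CArG box was found in 1.47% of the 32851 mouse windows of the same 250 bases, and 0.0183% held 2 or more. The 3 Nr4a windows each held 4 CREB cores, a number reached or passed by 0.137% of all windows. Both the Srf and the Nr4a1 window held an Egr site (2.57% of all windows), and the Nr4a2 window held none. No CArG box was found in the 3 Nr4a windows, and the Srf window held 1 CREB core (17.8% of all windows held at least 1). None of the capitalised matches overlapped. A match describes letters only and is not evidence of binding.

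Across the series, a value is the log2 expression of a probe set minus its median over the 8 arrays, so 0 is that median, and only differences between arrays can be read. Array medians lay between −0.07 and 0.09, but the spread of values differed. The interquartile range was 0.97 on G1 replicate 4 and 0.91 on G0 replicate 3, against 0.57 to 0.73 on the other 6 arrays. The labels give replicate 4 of each gate a different labelling kit revision (3, against 8 for the others). The poly-A spike-in controls, however, were missing on the arrays titled G1 replicate 4 and G0 replicate 3, where their medians were −6.40 and −7.12, against −0.14 to 0.62 on the other 6 arrays. These 2 arrays also had the lowest 3′ minus 5′ signal of the Actb control probes (both −0.78, against −0.12 to 0.19 on the others). An exchange of the titles of G0 replicates 3 and 4 would remove this mismatch, but the labels do not settle it. The titles were kept, so every value given for these 2 G0 arrays, the labelled batches and the differences within them rest on titles that may be exchanged. With the titles exchanged, the labelled batch would be the spike-in batch, a fit that is given as an alternative. Of all genes, 95 (0.522%) differed between G1 and G0 at an adjusted p under 0.05 (limma, Benjamini-Hochberg over all probe sets), and 8.07% did at an unadjusted p under 0.05. Sorted bulk RNA cannot tell fewer cells with a transcript apart from less transcript per cell. With centred values, the presence or absence of fibroblast markers could not be checked. Of 9 measured fibroblast markers 0 passed the adjusted threshold, and 1, the fibrillar collagen gene Col3a1, had a raw p under 0.05 (limma, log2 difference G1 minus G0 −0.72).

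None of the 9 genes differed between the gates past the threshold, and no gene had its 4 G1 values wholly above or below its 4 G0 values (7.07% of all genes did). By the raw p from limma, too, 0 of the 9 genes were under 0.05. Of the 19 probe sets 1, of Egr2, had a raw p under 0.05. The log2 differences G1 minus G0 were negative in 7 genes (77.8%, against 55.3% of all genes) and positive in 2, with a median of −0.35, against −0.06 for all genes. Of the 9 measured fibroblast markers 7 were negative as well, with a median of −0.14. In the other gene lists the negative share ran from 18.2% (heat shock genes) to 81.8% (other early serum genes). In 7 of the 9 genes, all but Egr2 and Nr4a2, the SD within gates exceeded the difference between gates. The gate accounted for a median of 5.93% of the variance over the 8 arrays, against 10.2% for all genes.

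**Figure D1:**
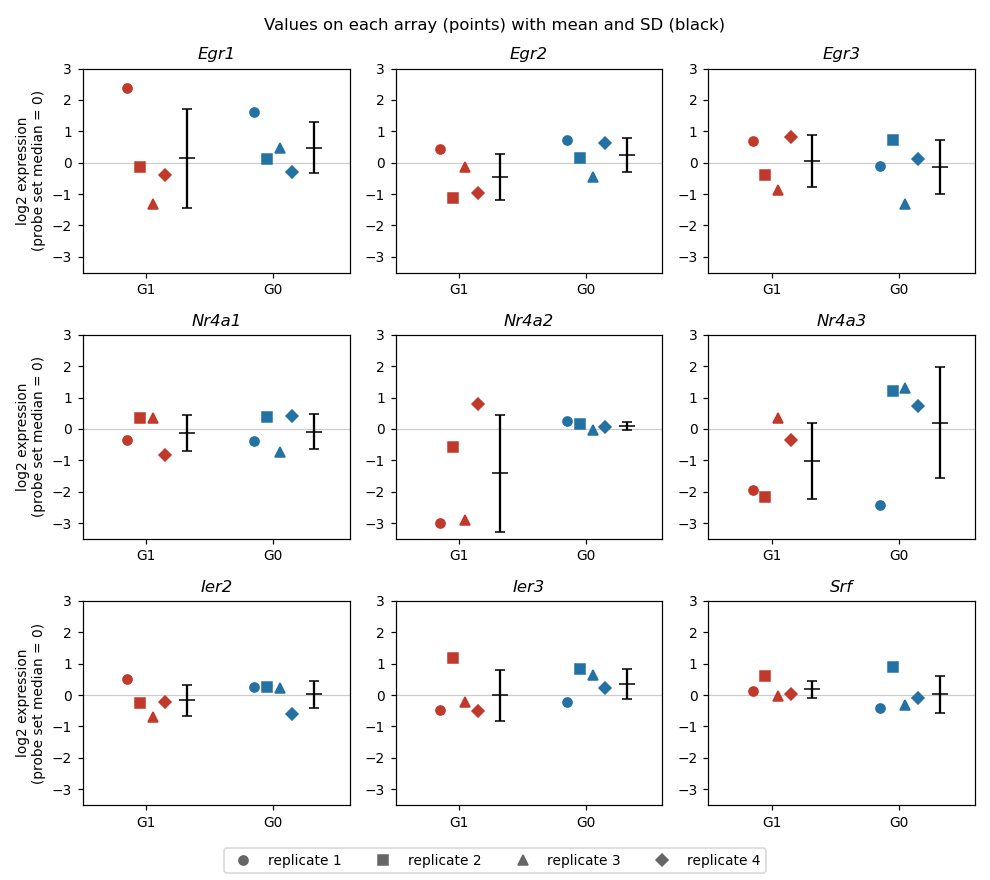
Log2 expression of the 9 genes on each array, relative to the median of the probe set, for G1 (red, left) and G0 (blue, right), with a marker shape for each titled replicate number and the mean and SD over 4 arrays in black. The 4 G1 points overlap the 4 G0 points in every panel, and Egr1 is highest on replicate 1 in both gates.

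Egr1 encodes the best known of the Egr factors, a direct target of SRF and its Elk partners. Its log2 values were 2.37, −0.12, −1.33 and −0.38 on G1 replicates 1 to 4, against 1.61, 0.12, 0.47 and −0.28 on G0 replicates 1 to 4. Replicate 1 was the highest array in each gate, and the lowest were G1 replicate 3 and G0 replicate 4. The highest and lowest of the 8 arrays differed 13.0-fold. G1 averaged 0.13 ± 1.58 and G0 0.48 ± 0.81 (SD, n = 4 each), a log2 difference of −0.35 with a 95% confidence interval of −2.19 to 1.49 (limma, adjusted p = 0.976). Without G1 replicate 3 the difference was 0.25, of the opposite sign. The interval includes differences of more than 2-fold in either direction.

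Egr2, known in Schwann cells and hindbrain as Krox20, had the lowest p-value of the 19 probe sets, on probe set 1427682_a_at. There it read 0.28, −0.41, −1.02 and −0.28 in G1, against 0.89, 1.33, 1.07 and −0.33 in G0. G0 replicates 1, 2 and 3 stood above all 4 G1 arrays, and G0 replicate 4 fell among them. The log2 difference was −1.10 (SE 0.39, 95% confidence interval −2.02 to −0.18; limma, unadjusted p = 0.026, adjusted p = 0.605), so it did not pass over all probe sets. Its other probe set, 1427683_at, read 0.44, −1.11, −0.14 and −0.97 in G1, against 0.74, 0.14, −0.47 and 0.62 in G0, a log2 difference of −0.70 (SE 0.46, adjusted p = 0.83). The values within labelling batches differed between the probe sets. The difference of 1427682_a_at was −1.48 in labelled batch 1 and 0.05 in labelled batch 2. On the arrays with spike-ins it was −1.02 and on those without −1.35. That of 1427683_at was −0.41 and −1.59 in the labelled batches, −0.77 where spike-ins were present and −0.50 where they were missing. Labelled batch 2 and the arrays without spike-ins hold 1 array per gate each and give no test. The mean of both probe sets differed by −0.90 (SE 0.29; limma, adjusted p = 0.406).

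Egr3 encodes a further factor of the family with the same kind of zinc fingers. Probe set 1421486_at read 0.68, −0.38, −0.87 and 0.83 in G1, against −0.12, 0.74, −1.33 and 0.12 in G0, with the lowest value of each gate on replicate 3. Its log2 difference was 0.21 (95% confidence interval −1.02 to 1.44; limma, adjusted p = 0.978). The 6 arrays with spike-ins gave −0.44, the opposite sign. Probe set 1436329_at differed by 0.30 (−1.01 to 1.61, adjusted p = 0.970). The probe sets ranked the arrays differently, with G1 replicate 4 the highest G1 array on 1421486_at and the lowest on 1436329_at.

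Nr4a1 (Nur77) is induced by growth factors and by cyclic AMP, and its protein moves between nucleus and mitochondria. It read −0.34, 0.34, 0.35 and −0.85 in G1, against −0.37, 0.37, −0.75 and 0.41 in G0. In each gate 2 arrays were high and the others low: G1 replicates 2 and 3 and G0 replicates 2 and 4 were high, and replicate 1 of each gate with G1 replicate 4 and G0 replicate 3 was low. Its means were −0.12 ± 0.58 in G1 and −0.09 ± 0.57 in G0 (SD, n = 4 each). The log2 difference was −0.04 (95% confidence interval −1.01 to 0.93; limma, adjusted p = 0.996), and the gate accounted for 0.152% of the variance. When the covariate was the spike-in batch, the interval was −0.68 to 0.60. In labelled batch 1 the difference was 0.37 and in labelled batch 2 it was −1.25, where G1 replicate 4 lacked the spike-ins and G0 replicate 4 had them. On the arrays with and without spike-ins it was −0.02 and −0.10.

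Nr4a2 (Nurr1), best known for its role in dopamine neurons, was read by 6 probe sets. Probe set 1455034_at read −1.15, 0.91, 0.69 and −0.85 in G1, against −0.62, 0.62, −0.77 and 0.65 in G0. The high arrays were the same 4 as for Nr4a1. Probe set 1447863_s_at read −0.64, 0.61, 0.62 and −0.98 in G1, against −0.42, 0.55, −0.17 and 0.17 in G0, with the same arrays above 0. Probe set 1450750_a_at was likewise above 0 on those 4 arrays and below 0 on the others, at −0.76, 0.60, 0.36 and −0.15 in G1, against −0.72, 0.62, −0.44 and 0.15 in G0. The log2 differences of these 3 probe sets were −0.07, −0.13 and 0.11 (limma, adjusted p between 0.984 and 0.994). Probe set 1433422_at, which stood for the gene in the counts, went its own way. It read −3.01, −0.58, −2.89 and 0.80 in G1, against 0.26, 0.16, −0.05 and 0.05 in G0. Its log2 difference of −1.52 (95% confidence interval −3.63 to 0.59; limma, adjusted p = 0.810) rested on 2 very low G1 arrays. The SD of this probe set was 1.86 in G1 and 0.13 in G0, and without an absolute level it is not known whether the low values lie at background. The remaining probe sets, 1433423_at and 1450749_a_at, differed by −0.01 and 0.35 (adjusted p = 0.999 and 0.925).

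Nr4a3 (NOR1), the third receptor, was read by 3 probe sets that disagreed. Probe set 1421079_at read −1.94, −2.16, 0.35 and −0.35 in G1, against −2.43, 1.20, 1.30 and 0.73 in G0, a log2 difference of −1.23 (95% confidence interval −3.56 to 1.11; limma, adjusted p = 0.879). G0 replicate 1 fell below all 4 G1 arrays. Probe set 1438796_at read 1.42, 0.25, −0.96 and −1.004 in G1, against 1.99, 0.11, −0.11 and −0.32 in G0, highest on replicate 1 of each gate. It differed by −0.49 (−1.98 to 1.01, adjusted p = 0.946). Probe set 1421080_at differed by 0.12 (−1.70 to 1.95, adjusted p = 0.992). The probe sets of Nr4a3 thus ordered the arrays differently, and none of their intervals left out 0.

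**Figure D2:**
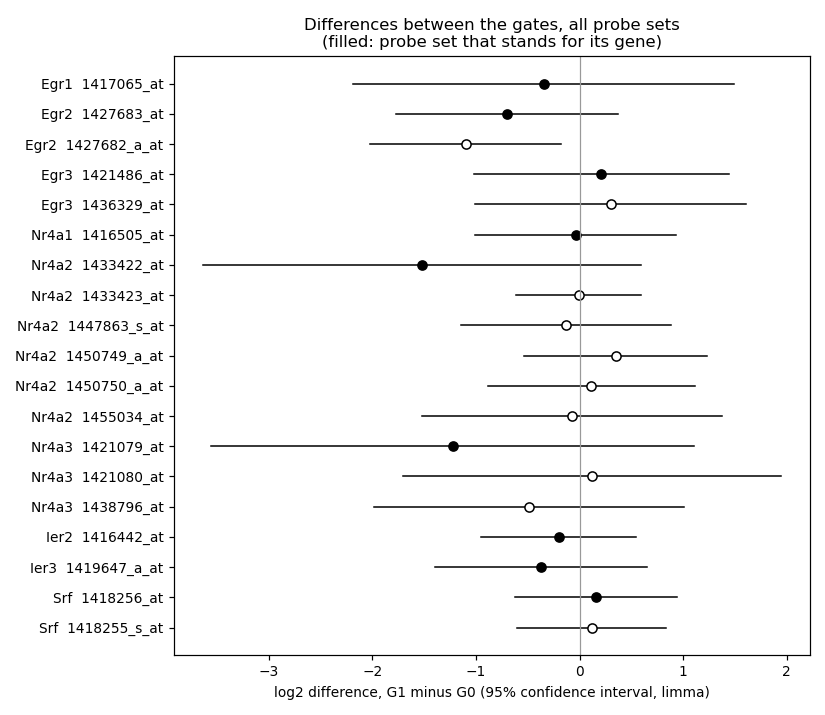
Log2 difference, G1 minus G0, of each of the 19 probe sets with its 95% confidence interval from limma, with filled points for the probe set that stands for its gene. Only the interval of the Egr2 probe set 1427682_a_at, from −2.02 to −0.18, lies wholly to one side of 0.

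Ier2, a small nuclear protein induced with Fos, read 0.50, −0.25, −0.70 and −0.22 in G1, against 0.27, 0.26, 0.22 and −0.61 in G0. G1 replicate 3 and G0 replicate 4 were the lowest arrays of their gates, as for Egr1. The log2 difference was −0.20 (95% confidence interval −0.95 to 0.54; limma, adjusted p = 0.960), and 0.03 without G1 replicate 3. Ier3 (IEX-1), a survival factor that is also a target of NF-κB, read −0.49, 1.18, −0.22 and −0.50 in G1, against −0.23, 0.84, 0.64 and 0.22 in G0. Replicate 2 was the highest array in each gate. Its log2 difference was −0.38 (−1.40 to 0.65, adjusted p = 0.936).

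Srf encodes the factor that drives many of the others and its own gene. Probe set 1418256_at read 0.12, 0.59, −0.03 and 0.03 in G1, against −0.39, 0.88, −0.31 and −0.09 in G0. The log2 difference was 0.16 (95% confidence interval −0.63 to 0.94; limma, adjusted p = 0.974). Probe set 1418255_s_at read −0.09, 0.16, 0.13 and −0.49 in G1, against −0.39, 0.21, −0.66 and 0.09 in G0, a difference of 0.12 (−0.60 to 0.83, adjusted p = 0.980). Its 4 arrays above 0 were those of Nr4a1. Both Srf intervals stayed short of a 2-fold difference in either direction, as did those of Ier2 and of Nr4a2 probe set 1433423_at (−0.61 to 0.60). The intervals of the other 15 probe sets reached 2-fold or more on at least one side.

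Variation shared by both gates took at least 2 forms. With each gate's mean removed, Pearson correlations over the 8 arrays are given here as descriptions, without a test, since the arrays share labelling and sorting and the pairs were looked at with their values known. Egr1 was most like Nr4a3 probe set 1438796_at (r = 0.90) and Ier2 (r = 0.85) among the other 18 probe sets, followed by Egr2 probe sets 1427682_a_at (0.65) and 1427683_at (0.47). Its r was 0.31 and −0.23 with the probe sets of Egr3, −0.41 with Nr4a1, −0.31 with Ier3, and −0.15 and −0.28 with those of Srf. With the 6 Nr4a2 probe sets it ran from −0.76 to 0.23, and it was −0.69 and −0.50 with the other Nr4a3 probe sets. Nr4a1 was most like Srf probe set 1418255_s_at (r = 0.97) and Nr4a2 probe sets 1455034_at (0.91) and 1447863_s_at (0.87). The other Srf probe set had r = 0.56 with Nr4a1. On replicate 1 of each gate Egr1 and Ier2 were above 0, while Nr4a1, Srf probe set 1418255_s_at and Nr4a2 probe sets 1455034_at and 1447863_s_at were below 0. On G1 replicate 3 and G0 replicate 4 it was the reverse, and on G0 replicate 2 all of them were above 0.

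**Figure D3:**
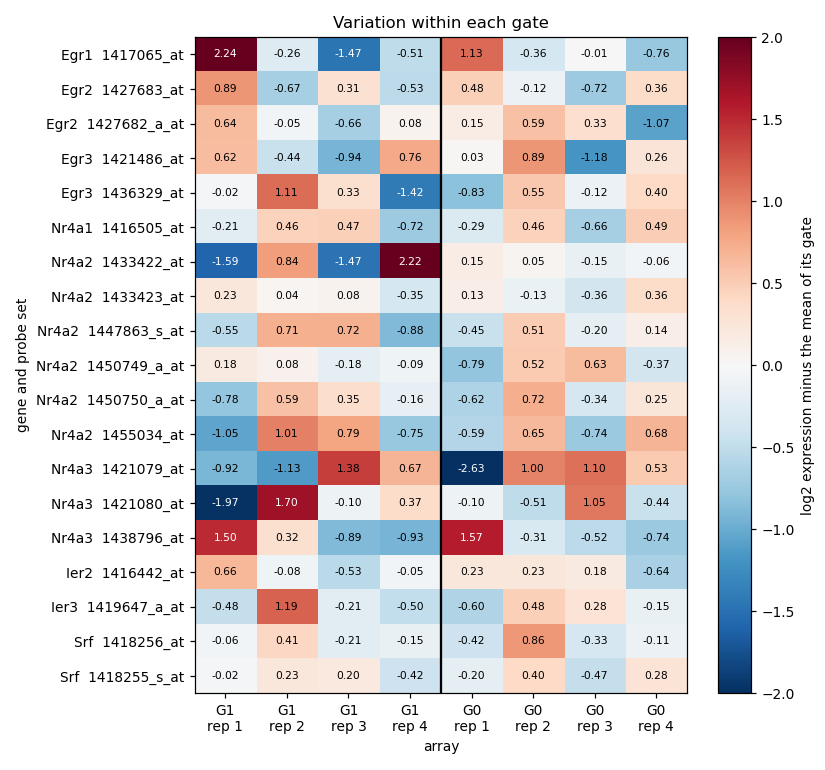
Log2 expression minus the mean of its gate for all 19 probe sets (down the page) on the 4 G1 arrays (left) and the 4 G0 arrays (right), with red above and blue below the gate mean. Egr1 stands 2.24 and 1.13 above the mean on replicate 1 of G1 and G0, while Nr4a1 is low on replicate 1 of both gates, on G1 replicate 4 and on G0 replicate 3.

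The pattern of Nr4a1 was widely shared on the array. Of 18192 other genes 5.61% had an r above 0.9 or below −0.9 with it, against a median of 0.682% over all genes (quartiles 0.412% and 1.49%). The corresponding shares were 0.539% for Egr1 and 1.39% for Srf. The 5 genes most like Nr4a1 were Cth, an enzyme of cysteine synthesis (r = 0.996), Raph1, Csnk1g3, a casein kinase, Tnc, the matrix protein tenascin C, and Dst, a cytoskeletal linker, with r from 0.993 to 0.996. Those most like Egr1 were Hgsnat, a lysosomal acetyltransferase (0.98), Pyurf, Rbm7, Elp2 and Cisd1 (0.96 to 0.97). Those most like Srf probe set 1418256_at were 4930453N24Rik (0.99), Cox6c, Fcgr2b, Rps27 and Capza1, a capping protein subunit of actin filaments (0.97). Both arrays without spike-ins were among the 4 low arrays of Nr4a1 and had its lowest values (G1 replicate 4 −0.85, G0 replicate 3 −0.75). The other 2 low arrays, replicate 1 of G1 (−0.34) and of G0 (−0.37), carried spike-ins. Srf probe set 1418255_s_at was also lowest on the arrays without spike-ins (−0.49 and −0.66). For Nr4a2 probe sets 1455034_at, 1447863_s_at and 1450750_a_at, in contrast, a replicate 1 array read below at least 1 array without spike-ins. The part of labelling or of RNA quality in the pattern of Nr4a1 was not tested.

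By the titled numbers the arrays could not be taken as pairs. Over all genes the deviations of same-numbered G1 and G0 arrays correlated at 0.06, 0.08, −0.12 and −0.13 for replicates 1 to 4. Among the 16 combinations each G1 array correlated best with a different G0 array, and these were replicates 1 and 2 with their own number, G1 replicate 3 with G0 replicate 4 (0.10) and G1 replicate 4 with G0 replicate 3 (0.26), the arrays without spike-ins. That is the matching that an exchange of the titles of G0 replicates 3 and 4 would give, though the correlations of replicates 1 and 2 were small. With gate means removed, every array has some best partner with a correlation above 0. The largest value joins the arrays whose missing spike-ins raised the question of the titles, so the matching does not settle it. Over the 19 probe sets of the 9 genes the matching was not the same. The highest was G1 replicate 3 with G0 replicate 4 (0.69), followed by replicate 1 of both gates (0.60). Next came G1 replicate 3 with G0 replicate 2 (0.44). G1 replicate 4 with G0 replicate 3 was at 0.23, and replicate 2 of both gates at −0.19. Probe sets of the same gene are not independent of each other.

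Other early serum genes had mostly negative differences too, and none passed. Of 44 measured genes on this list 0 passed the adjusted threshold in limma. By raw p under 0.05 there were 4 with negative and 0 with positive differences, against 3.74% and 4.33% of all genes. The negative differences numbered 36 (81.8%, against 55.3% of all genes), and the median was −0.27. Ccl2, a chemokine gene, differed by −1.13 (SE 0.30, adjusted p = 0.362) and Dusp1, a phosphatase that switches off ERK and p38, by −0.77 (SE 0.28, adjusted p = 0.619). The other 2 were Klf10, a TGF-beta response gene (−0.49, adjusted p = 0.661), and Bhlhe40, a clock repressor (−0.98, adjusted p = 0.640). The highest unadjusted ranks among positive differences went to Hes1, a Notch target (0.97, adjusted p = 0.869), and Plaur, the urokinase receptor (0.31, adjusted p = 0.968). Fos, the AP-1 subunit that responds with Egr1, read 1.77, −0.61, −1.51 and 0.44 in G1, against 1.77, −0.44, 1.70 and −1.17 in G0, and thus shared the high replicate 1 and the low G1 replicate 3 and G0 replicate 4 of Egr1. It differed by −0.44 (95% confidence interval −2.58 to 1.70, adjusted p = 0.973). Junb differed by −0.39 (adjusted p = 0.956) and Myc by −0.25 (adjusted p = 0.945).

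Of 17 measured partners and regulators of the 9 genes 0 passed, and the median log2 difference was −0.03. Cebpb, a transcription factor phosphorylated by ERK, was the 1 gene of the 17 separated between the gates, with all 4 G1 values below all 4 G0 values. Its log2 difference was −0.79 (SE 0.26, limma, unadjusted p = 0.019, adjusted p = 0.547). Of all genes 7.07% were separated in either direction and 8.07% had a raw p under 0.05, so 1 such gene in 17 is near the share of all genes. Nab2, the corepressor that binds Egr1 and is induced by it, differed by −0.70 (adjusted p = 0.844), Rps6ka5 (Msk1), a kinase of CREB, by 0.57 (adjusted p = 0.737), and Rxra, a dimer partner of Nr4a1, by 0.85 (adjusted p = 0.908).

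Downstream genes did not follow as groups either. Of 26 measured SRF and MRTF target genes 0 passed the adjusted threshold in limma, 0 had a raw p under 0.05, and the median was −0.04. Myl9, a myosin light chain, differed by −0.59 (adjusted p = 0.83), Filip1l by −0.38 (0.810), Mcam by 0.39 (0.915) and Actg1, cytoplasmic gamma actin, by 0.13 (0.961). Of 11 measured genes regulated by Egr factors 0 passed and 1, Vegfa, the endothelial growth factor gene, had a raw p under 0.05 (−0.82, adjusted p = 0.682). Of all genes 8.07% had a raw p under 0.05. Cdkn1a (p21) differed by 0.57 (adjusted p = 0.771) and the adhesion gene Icam1 by 2.14 with an SE of 1.48 (adjusted p = 0.845). The list's median was −0.09.

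**Figure D4:**
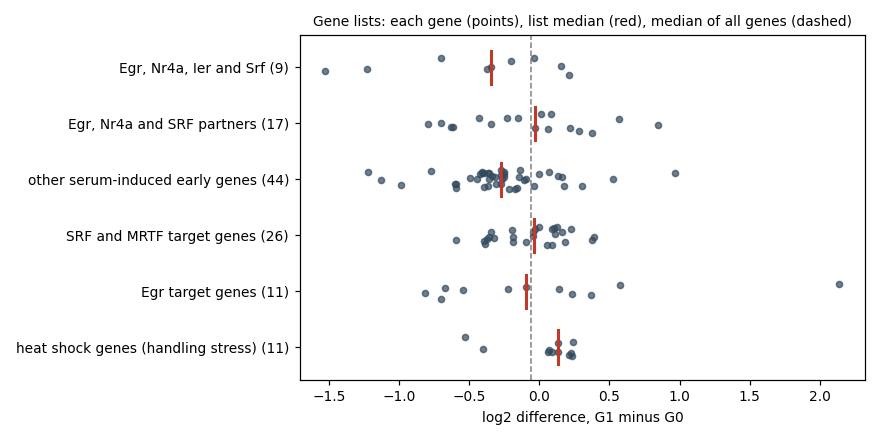
Log2 difference, G1 minus G0, of each measured gene (points, spread vertically at random) in the 9 genes and in 5 lists, with the list median in red and the median of all genes as a dashed line. The medians of the 9 genes (−0.35) and of the other early serum genes (−0.27) lie left of the median of all genes (−0.06).

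Heat shock genes, which rise with handling stress, were set beside the early genes because cell sorting can itself induce immediate early genes. Of 11 measured, 0 passed the adjusted threshold in limma, 0 had a raw p under 0.05, and the median log2 difference was 0.13. Their median level per array was 0.43, −0.04, −0.26 and 0.20 on G1 replicates 1 to 4, against 0.07, −0.02, 0.07 and −0.15 on G0 replicates 1 to 4. G1 replicate 1, the array with the highest Egr1, was also highest for this list, and G1 replicate 3, with the lowest Egr1, was lowest. In G0 the lowest array for Egr1 and for this list was replicate 4. G1 replicate 4 was above G1 replicate 2 for the list, but below it for Egr1 (−0.38 against −0.12). The genes of the list were split on G0 replicate 1, where Egr1 was highest. Hspb1 (1.06), Hspa1b (0.54), Hspa8 (0.53), Bag3 (0.45), Hsph1 (0.19) and Hspd1 (0.02) were also highest in G0 there. Hspa1a (−0.88) and Dnaja1 (−0.19) were lowest in G0 there, and Hsp90aa1, Dnajb1 and Hspe1 were neither. In G1 the likeness was not particular to heat shock genes. The leukocyte markers, too, had their highest G1 median on replicate 1 (0.998) and their lowest on replicate 3 (−0.24). In G0, unlike Egr1, these markers had their lowest median on replicate 1 (−0.14) and their highest on replicate 3 (0.44). Hspd1 and Hsp90aa1, chaperone genes, differed by 0.21 and 0.24 (adjusted p = 0.897 and 0.926), Bag3, a cochaperone, by −0.40 (0.83) and Hspa1b by −0.53 (0.880). The part of handling in the variation of Egr1 was not tested. Markers of leukocytes (5 measured), epithelium (5) and endothelium (4) had 0 genes past the adjusted threshold. By raw p under 0.05 the leukocyte list had Adgre1 (−0.74) and the endothelial list Pecam1 (1.16), against 8.07% of all genes. With centred values it is not known whether any of these markers was expressed.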

How the data were processed

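RNA was measured on Affymetrix mouse arrays. The deposited table holds log2 expression for each array. The submitters' processing notes name MAS5, and the values show that every probe set was centred over the 8 arrays (largest absolute median 5e-07). The log base is nowhere stated and was taken as 2, on which all folds rest. Centring leaves no absolute levels, so no filter on level was possible, and the number of arrays limits the precision. Of 45101 probe sets 64 controls were left out, which left 45037 in the tests, and 34945 had 1 gene symbol (932 had several, 9160 none). Symbols were updated through Entrez identifiers with the GRCm38.p6 gene table. The probe set that stood for a gene was the lowest number with the suffix _at, or failing that _a_at, _s_at or _x_at.

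Differences are G1 minus G0, tested two-sided with limma 3.58.1 in R 4.3.3 (lmFit, eBayes with trend, labelled batch as covariate, 8 arrays), adjusted by the Benjamini-Hochberg method over all 45037 probe sets at 0.05. The fit was tested on simulated data without batches, with changes put only into probe sets of below-median SD. Recovery in noisier probe sets was not examined. Named genes were all 9 members and, per list, those past the threshold or the 2 of each sign with the lowest p, with Fos, Junb, Dusp1 and Myc, and the 5 most like Egr1, Nr4a1 and Srf. Any other gene named was chosen after its values were seen. Members and lists were chosen with earlier results of these data known. Alternatives were the covariate, the arrays used, scaling, trend, array weights, a filter on noisy probe sets, the mean of probe sets, a replicate block and leaving out each array.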

Additional observations from a re-analysis of the deposited data

Results flagged for a closer look

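Of 38 groups of 4 arrays (19 probe sets in 2 gates), 3 held an array whose gap to its nearest neighbour was larger, relative to the group's range, than Dixon's test allows at 95%. Chance gives about 1 such group in 20. Nr4a3 probe set 1421079_at was at −2.43 on G0 replicate 1, against 0.73 to 1.30 on the other G0 arrays. Ier2 was at −0.61 on G0 replicate 4, against 0.22 to 0.27 on the other G0 arrays. Ier3 was at 1.18 on G1 replicate 2, against −0.50 to −0.22 on the other G1 arrays.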

How the results depend on the processing

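None of the 9 genes passed in limma under any of the 19 alternatives run for their count. The median of their log2 differences was −0.35, ran from −0.40 to −0.16 when single arrays were left out, and was −0.12 without the noisiest probe sets, a filter that leaves 6 of the 9 genes. On the 6 arrays with spike-ins it was −0.18. With the mean of all probe sets of a gene it was −0.21, where Nr4a2 was at −0.21 and Nr4a3 at −0.53. Egr2, Ier3, Nr4a2 probe sets 1433422_at and 1450749_a_at, and Nr4a3 probe sets 1421079_at and 1438796_at kept their sign throughout. The background count of 95 genes was 183 with the spike-in batch as covariate, 31 on the 6 arrays with spike-ins, 0 in labelled batch 1 alone (1596 at an unadjusted p under 0.05) and 0 to 67 without single arrays. With the replicate block it was 0 genes (1456 at an unadjusted p under 0.05). Same-numbered arrays correlated negatively for replicates 3 and 4, so the titled numbers give this block no basis. A block with G0 replicates 3 and 4 exchanged was not fitted, because that matching comes from the values and not from the labels.

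Signs of other probe sets, none past the threshold, turned as follows, and the cause was not tested. In labelled batch 1 alone the log2 differences were 0.37 for Nr4a1, 0.23, 0.21 and 0.41 for Nr4a2 probe sets 1433423_at, 1447863_s_at and 1455034_at, and −0.15 for Nr4a3 probe set 1421080_at. On the 6 arrays with spike-ins they were −0.44 for Egr3 probe set 1421486_at and 0.10 for Nr4a2 probe set 1447863_s_at. With array weights they were −0.056 for that Egr3 probe set, 0.035 for Nr4a1, and 0.021 and 0.043 for Nr4a2 probe sets 1433423_at and 1455034_at. With arrays centred and with quantile normalization 1433423_at was at 0.018 and 0.0078. Leaving out single arrays gave −1.06 to 0.25 for Egr1, −0.14 to 0.58 and −0.052 to 0.90 for the Egr3 probe sets 1421486_at and 1436329_at, −0.40 to 0.027 for Ier2, −0.29 to 0.37 for Nr4a1, −0.13 to 0.23, −0.34 to 0.21, −0.10 to 0.38 and −0.42 to 0.41 for the Nr4a2 probe sets 1433423_at, 1447863_s_at, 1450750_a_at and 1455034_at, −0.47 to 0.82 for Nr4a3 probe set 1421080_at, and −0.058 to 0.35 and −0.0038 to 0.45 for the Srf probe sets 1418255_s_at and 1418256_at. Where replicate 4 of a gate is left out, the covariate takes up the remaining array of its labelling batch.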

Other observations

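Other early genes, chosen after their values were seen, were split over the same arrays. Fosb, an AP-1 subunit, read 1.48, −0.18, −1.01 and 0.00 on G1 replicates 1 to 4, against 1.43, −0.00 (below 0 by less than 0.01), 0.78 and −0.82 on G0 replicates 1 to 4, and so was highest on replicate 1 of each gate and lowest on G1 replicate 3 and G0 replicate 4, as Egr1 was. Dusp5, a nuclear ERK phosphatase, read −1.28, 1.28, 0.67 and −1.90 in G1, against −0.67, 1.42, −2.38 and 0.78 in G0, above 0 on the same 4 arrays as Nr4a1. Myc read −0.61, 0.33, 0.15 and −0.38 in G1, against −0.27, 0.52, −0.15 and 0.39 in G0, again above 0 on those 4 arrays. Centring puts 4 arrays above 0 in any probe set, and how many of all genes share these 4 was not counted.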
